A study of Mus musculus with 6 samples.

Results

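The HSP90 and HSP70 chaperone system was examined in CD4+ T cells of mice that had lost Cul5. Its 10 genes were chosen by name: the HSP90 proteins Hsp90aa1, Hsp90ab1 and Hsp90b1, the co-chaperones Cdc37 and Stip1, the HSP70 proteins Hspa8, Hspa5 and Hspa1a, the related Hspa4, and the J-domain protein Dnajb1. Of these, 9 were listed in the deposited gene-level table and Hspa1a was taken from the summed counts of its transcripts, so that all 10 were among the 12925 genes tested. Both these genes and the further lists below were chosen with earlier results of these data known. The shares of all genes given beside their counts are therefore not a test of any list. The 6 samples were naive CD4+ T cells cultured for 48 h toward the Th9 fate, in which helper T cells make IL-9. WT cells came from Cul5 fl/fl mice without Cre, and Cul5 cKO cells from Cul5 fl/fl CD4-Cre mice, in which Cre acts in all T cells and removes exons 9 to 11 of Cul5. Both groups thus carried the floxed allele and only one carried Cre, and the mice were 8 to 10 weeks old. All cultures were stimulated with anti-CD3 at 2 µg/ml and anti-CD28 at 1 µg/ml, and the Th9 conditions were IL-4 at 20 ng/ml, TGF-β at 2.5 ng/ml and a blocking antibody to IFN-γ at 10 µg/ml. The labels number 3 samples in each genotype and do not say whether each came from its own animal, so p-values measure the spread between these samples, which may be technical.

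HSP70 proteins bind unfolded stretches of new or damaged proteins, with J-domain proteins delivering the substrate and exchange factors releasing it. In the cytosol, Stip1 joins HSP70 to HSP90 and hands over immature client proteins, among them many kinases, which Cdc37 recruits, and steroid receptors. The endoplasmic reticulum has its own set, Hspa5 and Hsp90b1, which fold secreted and membrane proteins. Cul5 is the scaffold of a family of ubiquitin ligases, and proteins that depend on HSP90 are known to be degraded through such ligases when HSP90 is inhibited. Activated T cells enlarge and make large amounts of protein, and chaperone transcripts are abundant in them.

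Read counts summed over all transcripts were lowest in WT replicate 3, at 3944803, and highest in Cul5 cKO replicate 3, at 23454552, with the other 4 libraries between 23111689 and 23404769. Cul5, the targeted gene, was measured at 64.4, 69.3 and 65.0 CPM in WT replicates 1, 2 and 3 and at 10.6, 14.2 and 13.1 CPM in the Cul5 cKO replicates, where CPM is counts scaled to a common TMM-normalized library size. The groups were far apart, with a log2 fold change of Cul5 cKO over WT of −2.39 ± 0.11 (SE, n = 3 and 3, edgeR quasi-likelihood test, adjusted p = 0.000992). The 7 T cell markers added up to 1211 to 1300 CPM in WT and to 1062 to 1096 CPM in Cul5 cKO. They did not all differ alike. Cd28 was at least 88.2 CPM in WT and at most 56.3 CPM in Cul5 cKO. Cd3d, Cd3e, Cd3g and Cd247 were also lower in every Cul5 cKO sample than in every WT sample. The groups overlapped for Cd5 and for Cd4, the most abundant of the 7. Markers of other cells set a pair of libraries apart. Cul5 cKO replicate 3 held 48.0 CPM over 5 B cell markers, against 6.47 to 19.2 CPM in the other 5 libraries, and 11.7 CPM over Cd8a and Cd8b1, against 4.30 to 6.53 CPM. Only Cd8a stood out there, at 6.27 CPM against at most 1.71 CPM elsewhere. Cd8b1 was at 5.38 CPM in that library and at 5.45 CPM in WT replicate 2. Cul5 cKO replicate 2 had the highest sums of 6 myeloid markers, at 12.8 CPM against 3.69 to 8.65 CPM in the others, of 4 NK cell markers, at 13.3 CPM against 4.57 to 10.9 CPM, and of 5 erythroid markers, at 2.54 CPM against 0 to 1.35 CPM. Its NK cell sum was nearly all Eomes, at 13.0 CPM, while Klrk1 was at 0.263 CPM there and at up to 0.711 CPM elsewhere. Its Lyz2 and Csf1r were at 2.81 and 2.63 CPM against at most 0.260 and 0.173 CPM elsewhere. Adgre1 and Itgax were also highest in that library. Itgam went the other way. It was highest in WT replicate 2, at 5.93 CPM, and was also higher in WT replicate 3 than in Cul5 cKO replicate 2. Cd14, Ncr1 and Klrb1c were at or under 3 counts in all 6 samples. In bulk samples, fewer cells of a type and less RNA per cell cannot be told apart.

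Transcripts of most chaperone genes were measured slightly higher in Cul5 cKO than in WT, by 9.28% to 29.2% for the 8 genes with the larger differences, except that Hsp90aa1 and Hspa8 came out slightly lower on counts scaled from TPM, on TPM and in the deposited table, and Hspa4 on TPM alone. None of the 10 differences passed the test. No gene of the 10 had an adjusted p under 0.05 in edgeR, which called 1.03% of the 12925 genes tested, or in DESeq2, which called 5.37% of those it tested. At an unadjusted p under 0.05, 7 of the 10 were higher and none was lower in edgeR as in DESeq2, where 10.9% of all tested genes were higher and 10.4% lower by edgeR and 9.51% were higher by DESeq2. In the same 7 genes all 3 Cul5 cKO samples lay above all 3 WT samples, which held for 14.0% of the genes tested. All 9 genes above the floor of 3 counts in every sample were higher, with a median log2 fold change of 0.22, and the median of the 10 was 0.20, against −0.01 over all tested genes. Together the 10 genes made up 9966, 10370 and 9976 CPM in WT replicates 1, 2 and 3, and 10921, 11600 and 12639 CPM in the Cul5 cKO replicates. For each of the 7 genes the exact two-sided permutation test over the 6 samples gave p = 0.1, the smallest value that 3 samples against 3 allow.

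**Figure D1:**
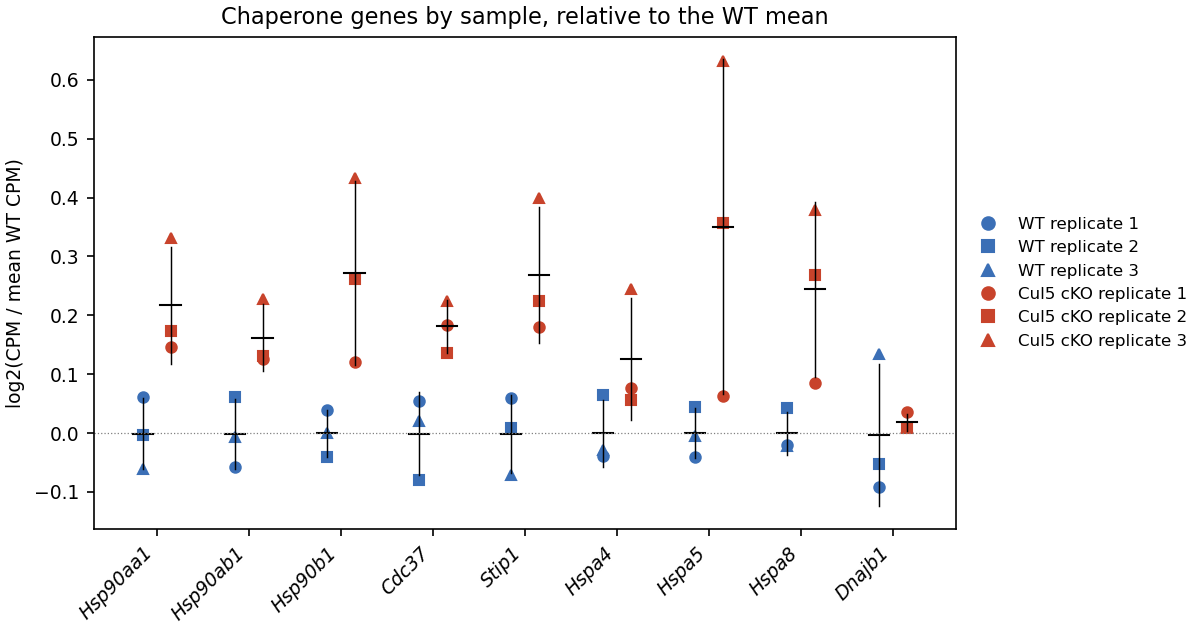
Each point is one sample, drawn on the vertical axis as the log2 ratio of its CPM to the mean WT CPM of the gene, with WT in blue and Cul5 cKO in red, and the black lines give the mean and SD of 3 samples. The red points lie above the blue ones for 7 of the 9 genes drawn, the groups overlap for Hspa4 and Dnajb1, and Cul5 cKO replicate 3, the red triangle, is the highest of the 6 samples for 8 genes. On TPM the means of Hsp90aa1, Hspa8 and Hspa4 are slightly lower in Cul5 cKO, and Hspa1a, which was near the detection floor, is not drawn.

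The cytosolic HSP90 proteins come from a pair of genes, of which Hsp90ab1 is regarded as the constitutive and Hsp90aa1 as the more stress-inducible form. Hsp90ab1 (ENSMUSG00000023944, GRCm38 chr17:45567775-45573271, minus strand) was measured at 3488, 3787 and 3612 CPM in WT replicates 1, 2 and 3 and at 3962, 3976 and 4250 CPM in the Cul5 cKO replicates. The lowest Cul5 cKO sample lay just above the highest WT sample, and the log2 fold change was 0.16 ± 0.06 (SE, n = 3 and 3, edgeR adjusted p = 0.168). Hsp90aa1 (ENSMUSG00000021270, chr12:110690605-110702728, minus strand) was measured at 1064, 1018 and 978 CPM in WT and at 1129, 1150 and 1283 CPM in Cul5 cKO. The groups did not overlap for Hsp90aa1 either, with Cul5 cKO replicate 3 set off above the other samples, and the log2 fold change was 0.22 ± 0.07 (SE, edgeR adjusted p = 0.142). Its direction depended on the measure, as described below for the reads given to each transcript.

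Cdc37 is the co-chaperone that brings protein kinases to HSP90. Its transcripts (ENSMUSG00000019471, chr9:21133222-21149982, minus strand) were measured at 266, 242 and 260 CPM in WT and at 291, 281 and 299 CPM in Cul5 cKO. All 3 Cul5 cKO samples were higher than all 3 WT samples, and the spread within both groups was small, with a log2 fold change of 0.18 ± 0.06 (SE, edgeR adjusted p = 0.163). Stip1, also called HOP, bridges HSP70 and HSP90. For Stip1 (ENSMUSG00000024966, chr19:7020702-7039967, minus strand) the WT samples gave 332, 320 and 303 CPM and the Cul5 cKO samples 361, 372 and 420 CPM. The groups were apart, Cul5 cKO replicate 3 was again the highest, and the log2 fold change of 0.27 ± 0.08 (SE) had the smallest adjusted p of the 10 genes, at 0.120 by edgeR.

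Hspa8, the constitutive cytosolic HSP70, was the most abundant of the 10 genes by TPM. It (ENSMUSG00000015656, chr9:40800984-40810087, plus strand) was measured at 3533, 3690 and 3529 CPM in WT and at 3802, 4319 and 4660 CPM in Cul5 cKO. The WT samples lay close together, the Cul5 cKO samples spread over a wider range above them, and the log2 fold change was 0.25 ± 0.08 (SE, edgeR adjusted p = 0.144). Hspa4 belongs to the HSP110 branch of the family, whose members act as exchange factors for HSP70. Its counts (ENSMUSG00000020361, chr11:53259814-53300457, minus strand) gave 421, 452 and 424 CPM in WT and 456, 450 and 513 CPM in Cul5 cKO. WT replicate 2 lay above Cul5 cKO replicate 2, so the groups overlapped, and the log2 fold change of 0.13 had a 95% interval from −0.04 to 0.29 (edgeR adjusted p = 0.341, exact permutation p = 0.2). Without Cul5 cKO replicate 3 it was 0.0687.

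Of the endoplasmic reticulum pair, Hspa5, also called BiP, is the HSP70 of this compartment and a sensor of unfolded protein there. Hspa5 (ENSMUSG00000026864, chr2:34771970-34777547, plus strand) was measured at 344, 365 and 353 CPM in WT and at 370, 453 and 548 CPM in Cul5 cKO. Cul5 cKO replicate 1 lay only just above the highest WT sample while replicate 3 was far above it, so that the log2 fold change of 0.37 carried the largest error of the detected genes (SE 0.13, edgeR adjusted p = 0.177), and without Cul5 cKO replicate 3 it was 0.22. Hsp90b1, also called GRP94, is the HSP90 of the same compartment and is known for folding integrins and Toll-like receptors. For Hsp90b1 (ENSMUSG00000020048, chr10:86690209-86705509, minus strand) the values were 457, 433 and 445 CPM in WT and 484, 533 and 600 CPM in Cul5 cKO. The 3 Cul5 cKO samples stood in the same order as for Hspa5, an order also seen for Hsp90aa1, Hsp90ab1, Stip1 and Hspa8. The log2 fold change of Hsp90b1 was 0.28 ± 0.08 (SE, edgeR adjusted p = 0.137).

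The promoters of these genes are shown because this pair shares an element that most promoters lack. The set of RefSeq promoters used held entries for 7 of the 10 genes. Hsp90aa1, Hsp90ab1 and Hspa8 had no entry in it and were not searched for either element. For the others, the 250 bases before each annotated start were searched on both strands. The ER stress element was CCAAT and CCACG with 9 bases of any kind between them, which contains the CCAAT box. The short heat shock element was GAANNTTC or TTCNNGAA. The ER stress element was found in 0.113% of the 32851 RefSeq promoters, and of the 7 genes only Hsp90b1, with 2 matches beginning 212 and 107 bases before the start, and Hspa5, with 1 match beginning 65 bases before it, had one. The heat shock element was found in 12.8% of the promoters, and among the 7 genes in Hspa1a, 104 bases before the start, and in Cdc37, 170 bases before it. The windows of Stip1, Hspa4 and Dnajb1 held neither set of letters, but their RefSeq starts match no transcript start of the annotation used for the counts, unlike those of the other 4 genes. Below, the capitals mark the fixed letters of the matches, the second of Hsp90b1 on the opposite strand, and each window reads 5′ to 3′ on the strand of the gene in GRCm38.p6: chr10:86705445-86705694, minus strand, for Hsp90b1, chr2:34771840-34772089, plus strand, for Hspa5, and chr17:34972157-34972406, minus strand, for Hspa1a.
Hsp90b1: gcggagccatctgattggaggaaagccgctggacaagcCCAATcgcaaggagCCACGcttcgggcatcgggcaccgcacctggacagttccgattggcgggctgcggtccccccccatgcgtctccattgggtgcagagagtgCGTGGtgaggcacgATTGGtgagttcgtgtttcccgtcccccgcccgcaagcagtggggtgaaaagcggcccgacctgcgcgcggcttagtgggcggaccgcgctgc
Hspa5: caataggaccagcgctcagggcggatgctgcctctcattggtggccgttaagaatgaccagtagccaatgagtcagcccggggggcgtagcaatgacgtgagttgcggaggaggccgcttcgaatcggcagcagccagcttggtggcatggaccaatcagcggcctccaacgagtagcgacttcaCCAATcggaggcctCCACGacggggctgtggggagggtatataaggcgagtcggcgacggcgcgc
Hspa1a: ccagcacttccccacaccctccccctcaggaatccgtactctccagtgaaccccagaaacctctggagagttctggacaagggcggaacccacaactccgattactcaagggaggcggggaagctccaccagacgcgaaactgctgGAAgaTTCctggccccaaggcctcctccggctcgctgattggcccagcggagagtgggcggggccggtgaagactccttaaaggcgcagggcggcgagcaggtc

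The remaining genes, Hspa1a and Dnajb1, encode the main inducible HSP70 and an HSP40. Hspa1a (ENSMUSG00000091971, chr17:34969190-34972156, minus strand) had 0, 17 and 3 counts in WT and 6, 9 and 11 in Cul5 cKO. These counts correspond to 0, 0.735 and 0.759 CPM and to 0.261, 0.394 and 0.489 CPM, and with WT replicates 1 and 3 at or under the floor of 3 counts its fitted fold change is not read as a difference (exact permutation p = 0.7). Its neighbour Hspa1b (chr17:34956436-34959238, minus strand) is 99.2% identical over 2201 bases, so that the division of reads between the pair is uncertain. Hspa1b was measured at 1.07, 0.952 and 2.28 CPM in WT and at 0.955, 1.45 and 2.71 CPM in Cul5 cKO, with overlapping groups, and the summed counts of both genes gave an adjusted p of 0.741 by edgeR. Dnajb1 (ENSMUSG00000005483, chr8:83608193-83612653, plus strand), which delivers substrates to HSP70, was measured at 60.6, 62.2 and 70.8 CPM in WT and at 66.1, 64.9 and 65.1 CPM in Cul5 cKO. All Cul5 cKO values lay within the range of WT, and the log2 fold change of 0.03 had a 95% interval from −0.15 to 0.20 (edgeR adjusted p = 0.868, exact permutation p = 1). Its sign changed with the normalization, and a difference within that interval was not detectable here.

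Levels of different genes were compared as TPM, which divides counts by transcript length. Over the 6 samples Hspa8 was the highest at 3868 ± 650 TPM (SD, n = 6), followed by Hsp90ab1 at 2298 ± 154, Hsp90aa1 at 723 ± 104, Hspa5 at 284 ± 54, Hsp90b1 at 280 ± 26, Stip1 at 251 ± 29, Cdc37 at 198 ± 13, Hspa4 at 174 ± 15, Dnajb1 at 31.6 ± 1.2 and Hspa1a at 0.206 ± 0.13 TPM. The ranges of neighbours in this order were apart for the steps from Hspa8 down to Hspa5 and again from Hspa4 down to Hspa1a. Hspa5 and Hsp90b1 did not differ beyond their spread, with Hspa5 the higher in 3 of 6 samples. Ranges also overlapped along the order from Hsp90b1 to Hspa4, although Hsp90b1 was above Stip1 and Stip1 above Cdc37 in all 6 samples, and Cdc37 above Hspa4 in 5. The TPM of Hsp90ab1 was 3.14 to 3.66 times that of Hsp90aa1 in 5 samples and 2.34 times in WT replicate 3.

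**Figure D2:**
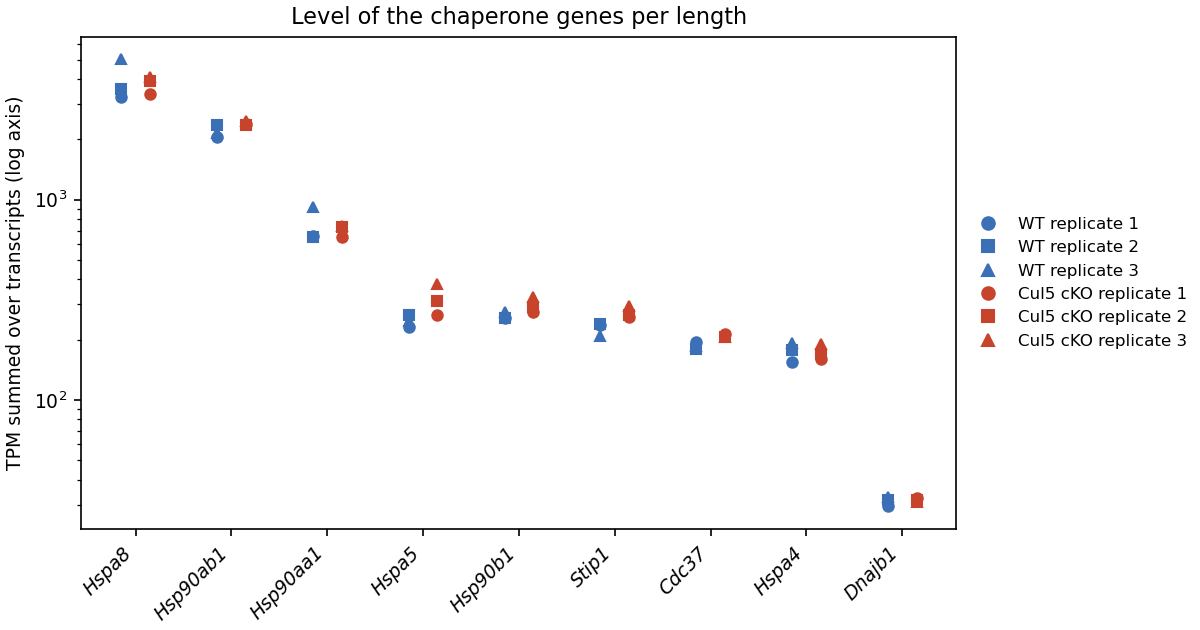
Points give the level of each gene in each sample in TPM summed over its transcripts, on a log axis, with genes in the order of their mean. Hspa8 and Hsp90ab1 stand at 2065 TPM or more in all samples, 6 genes lie between 155 and 920 TPM, Dnajb1 is at 29.5 to 32.9 TPM, and for Hspa8 and Hsp90aa1 the blue triangle, WT replicate 3, is the highest of the 6 samples.

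WT replicate 3, the library with the fewest reads, differed from the others in how the reads of a gene were divided between its transcripts. For Hspa8, the transcript Hspa8-201 of 2394 bases held 84.7%, 84.4% and 16.7% of the counts in WT replicates 1, 2 and 3 and 85.7%, 85.3% and 85.2% in the Cul5 cKO replicates. Its place in WT replicate 3 was taken by Hspa8-202, of 2019 bases, at 43.7% against 0.163% to 0.719% in the other samples, and by the short transcripts Hspa8-209 at 21.1% and Hspa8-203 at 10.6%. For Hsp90aa1 the shift was smaller, with Hsp90aa1-202 at 21.6% in WT replicate 3 and 35.6% to 38.5% elsewhere, and Hsp90aa1-208, of 711 bases, at 6.05% there and at 0 in the other 5 samples. Hspa4-201 followed the same direction, at 66.1% against 76.6% to 83.9%, whereas for Hspa5 the main transcript Hspa5-202 was at 94.5% there and at 91.3% to 92.5% elsewhere. The shift was general: over 6231 genes with several transcripts and at least 100 counts in every sample, the median share of the main transcript was 76.1% in WT replicate 3 and 81.3% to 82.3% in the others, and WT replicate 3 had the lowest share for 55.3% of the genes. What set this library apart was not tested. Genes of near-identical sequence, whose reads cannot be fully told apart, had 0.0555% as many counts as Hsp90aa1 and 0.0873% as many as Hspa8. Hsp90b1 shared 273 bases with a gene that had 1.08% as many counts. Shorter stretches were shared by Stip1, over 171 bases with Cfap20 at 11.7% and by Cdc37, over 175 bases with Trpc4ap at 97.4%.

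**Figure D3:**
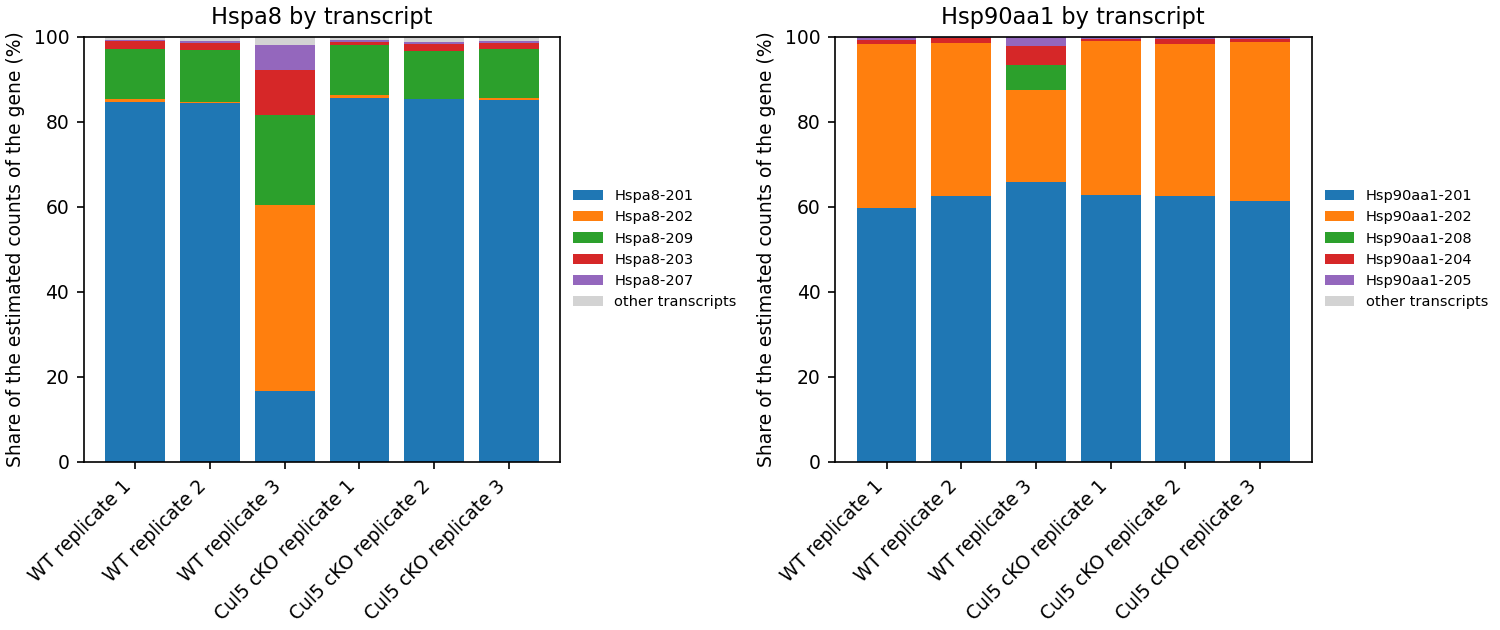
Stacked bars give the share of the estimated counts of Hspa8, left, and of Hsp90aa1, right, that each transcript received in each sample, in percent, with transcripts under 2% in every sample pooled in grey. WT replicate 3 departs from the other 5 samples in both panels, with Hspa8-201 at 16.7% there and between 84.4% and 85.7% elsewhere.

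Counts summed by gene do not depend on this division, but TPM does. In WT replicate 3 the CPM of Hspa8 was the lowest of the 6 samples, at 3529, while its TPM was the highest, at 5027 against 3244 to 4098 in the others. Hsp90aa1 showed the same, with 978 CPM and 920 TPM in WT replicate 3 and with 647 to 735 TPM in the other samples. On the deposited gene-level table of log2 CPM the log2 fold changes by limma were −0.02 for Hspa8 and −0.04 for Hsp90aa1, and 7 of the 9 listed genes were higher in Cul5 cKO, 3 of them at an unadjusted p under 0.05, where 7.85% of the table was higher at that level. For Hspa8 and Hsp90aa1 this was the sign obtained on counts scaled from TPM, at −0.0014 and −0.023, and not that on summed counts. Why the deposited table departs from summed counts was not tested. Without WT replicate 3, an alternative added after the values were seen, all 9 genes were higher in that table with a median of 0.17, of which 2 had an unadjusted p under 0.05, where 6.08% of the table was higher at that level.

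The measured differences also varied with the libraries used. Cul5 cKO replicate 3 was the highest of the 6 samples for 8 of the 9 detected genes. It also had the highest sums of B cell and CD8 T cell markers, the latter through Cd8a and not Cd8b1. Whether those cells had a part in the values was not tested. Without this library, 9 of the 10 genes were higher in Cul5 cKO with a median log2 fold change of 0.16, and 4 had an unadjusted p under 0.05, where 6.43% of all genes were higher at that level. Without Cul5 cKO replicate 2, which had the most myeloid marker reads, 9 of the 10 were higher with a median of 0.23, and 6 had an unadjusted p under 0.05, where 7.76% of all genes were higher at that level. Without WT replicate 3, 10 of 10 were higher with a median of 0.19, and 5 of them had an unadjusted p under 0.05, where 6.55% of all genes were higher at that level. With replicates 2 and 3 alone, edgeR called 4 of the 10 genes higher, Hsp90b1, Stip1, Hspa5 and Hspa8, with log2 fold changes of 0.37, 0.35, 0.48 and 0.32 and adjusted p of 0.0386, 0.0486, 0.0393 and 0.0386, where 4.38% of all genes were called higher. With a term that set replicate 1 against replicates 2 and 3, 1 of the 10 was called, Hspa8 with an adjusted p of 0.0378, where 7.17% of all genes were called higher. Both of these alternatives were chosen with earlier results of these data known.

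**Figure D4:**
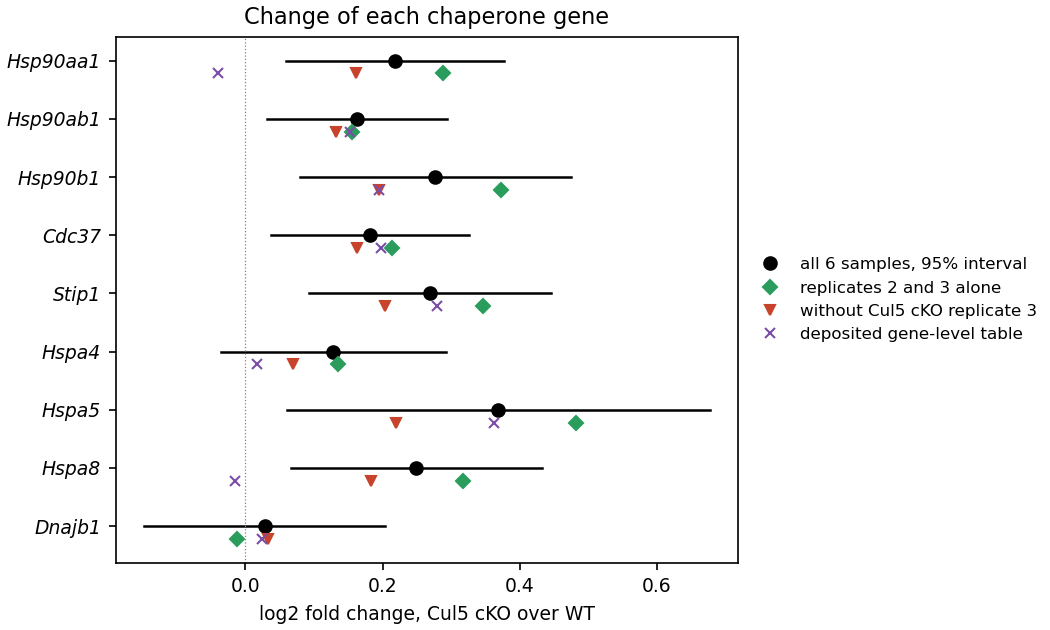
The horizontal axis is the log2 fold change of Cul5 cKO over WT, with black points and 95% intervals from the fit of all 6 samples and, below each, the value with replicates 2 and 3 alone (green), without Cul5 cKO replicate 3 (red) and on the deposited gene-level table (purple crosses). The intervals of 7 genes lie above 0, and that of Hspa5 from 0.06 to 0.68 is the widest. The green points lie to the right of the black ones for all genes drawn except Hsp90ab1 and Dnajb1, and the crosses of Hsp90aa1 and Hspa8 fall below 0.

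The wider chaperone network was described with 8 lists of 107 further genes, 14 of which are in more than one list. Of the 103 that were tested, edgeR called none and DESeq2 called 12, against 1.03% and 5.37% of all genes. At an unadjusted p under 0.05 by edgeR 32 were higher and 4 lower, against 10.9% and 10.4% of all genes, with a median log2 fold change of 0.12. The count of higher genes dropped to 18 when Cul5 cKO replicate 3 was left out and to 20 when WT replicate 3 was. It also depended on the measure. By limma, 19 of the 21 genes at that level were higher on the deposited gene-level table, where 7.85% of all genes were. On log2(TPM + 1) it was 17 of 21, where 5.48% of all genes were. The cytosolic and mitochondrial chaperonin subunits had the largest share of genes at that level. These ring-shaped chaperones fold actin, tubulin and other proteins, and all 10 of the subunits listed had every Cul5 cKO sample above every WT sample, against 14.0% of all genes, 9 of them at an unadjusted p under 0.05, against 10.9%, with log2 fold changes from 0.13 to 0.33 and a median of 0.21. Cct7 was measured at 442 ± 6.5 CPM (SD, n = 3) in WT and at 534 ± 29 CPM in Cul5 cKO (edgeR adjusted p = 0.0821), and Cct3 at 318 ± 8.7 and 376 ± 21 CPM (edgeR adjusted p = 0.109). Without Cul5 cKO replicate 3 the 10 subunits were still higher with a median of 0.16. Of them 3 then had an unadjusted p under 0.05 (6.43% of all genes higher), and without WT replicate 3 the median was 0.185 with 4 (6.55%). By limma, 10 of the 10 subunits were higher on the deposited gene-level table, 3 of them at that level (7.85%). On log2(TPM + 1) 8 were higher, 2 of them at that level (5.48%).

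Among 21 other chaperones and regulators of the endoplasmic reticulum, 19 were higher and 2 lower, 8 and 1 of them at an unadjusted p under 0.05 (10.9% and 10.4% of all genes), with a median of 0.23. Sdf2l1, a partner of Hspa5 complexes, had 37.7 ± 0.83 CPM in WT against 53.0 ± 6.0 CPM in Cul5 cKO (log2 fold change 0.49, edgeR adjusted p = 0.0687). P4hb, a protein disulfide isomerase, was at 380 ± 6.8 and 459 ± 21 CPM (0.27, edgeR adjusted p = 0.0744). The gene on the other side was Eif2ak3, which encodes the stress sensor PERK, at 33.3 ± 1.8 and 27.4 ± 0.32 CPM (−0.28, edgeR adjusted p = 0.113), and it was named after its values were seen. Without Cul5 cKO replicate 3, 19 of the 21 were higher with a median of 0.21, 4 of them at an unadjusted p under 0.05 (6.43% of all genes), and without WT replicate 3 the latter count was 5 (6.55%). By limma, 17 were higher on the deposited gene-level table, 8 of them at that level (7.85%). On log2(TPM + 1) 16 were higher, 7 of them at that level (5.48%).

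The helpers of HSP90 and HSP70 differed among themselves. Of 17 further HSP90 co-chaperones and paralogues 15 were higher, 6 of them at an unadjusted p under 0.05 (10.9% of all genes) and none lower at that level, with a median of 0.17. Nudc, a co-chaperone of the nuclear distribution family, had 136 ± 4.4 CPM in WT against 175 ± 20 CPM in Cul5 cKO (log2 fold change 0.37, edgeR adjusted p = 0.103), and the immunophilin Fkbp4 at 243 ± 8.7 and 304 ± 29 CPM (0.32, edgeR adjusted p = 0.106). Without WT replicate 3 the median of this list was 0.0821 and the count at that level 4 (6.55%). All 10 exchange factors and adaptors of HSP70 were higher, 4 at an unadjusted p under 0.05 (10.9% of all genes) and 2 without Cul5 cKO replicate 3 (6.43%), with a median of 0.20. They included Bag3 at 8.78 ± 1.6 and 12.6 ± 0.59 CPM (0.57, edgeR adjusted p = 0.112) and Bag1 at 108 ± 1.5 and 127 ± 5.6 CPM (0.23, edgeR adjusted p = 0.112).

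Further HSP70 and J-domain proteins were more mixed. Of 11 other HSP70 and HSP110 proteins 6 were higher, with 2 higher and 1 lower at an unadjusted p under 0.05 (10.9% and 10.4% of all genes) and a median of 0.10, which was 0.00185 without Cul5 cKO replicate 3. The lower gene had 4 counts in WT replicate 3. Only 6 of the 11 had at least 10 counts in every sample. Of those 6, 4 were higher with a median of 0.205. At that p level 2 were higher and 0 lower (12.3% and 11.2% of all genes). Hsph1, an HSP110 exchange factor, was at 111 ± 1.8 and 147 ± 15 CPM (0.41, edgeR adjusted p = 0.0718), and the mitochondrial Hspa9 at 556 ± 48 and 684 ± 67 CPM (0.30, edgeR adjusted p = 0.141). Among 18 J-domain proteins besides Dnajb1, 13 were higher with a median of 0.06, and those with an unadjusted p under 0.05, none of them so without Cul5 cKO replicate 3, were Dnajb11, a partner of Hspa5, at 80.5 ± 6.4 and 98.9 ± 13.8 CPM (0.30, edgeR adjusted p = 0.205), and Dnajb4, at 11.2 ± 1.2 and 8.75 ± 0.56 CPM (−0.35, edgeR adjusted p = 0.204).

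Hsf1 and other genes of the heat shock response were mixed as well. Their list also holds Hsf2 and Hsbp1 and leaves out the 10 chaperone genes. Of the 17 listed 13 were tested, of which 9 were higher, with 4 higher and 1 lower at an unadjusted p under 0.05 (10.9% and 10.4% of all genes) and a median of 0.10. Leaving out Cul5 cKO replicate 3 gave a median of 0.0253 and leaving out WT replicate 3 one of 0.0425, each with 2 genes higher at that level. Leaving out WT replicate 2 gave 0.0637. The sign of this median depended on the measure. It was 0.0406 on the deposited gene-level table, −0.0105 on counts scaled from TPM and −0.0644 on log2(TPM + 1). The genes of this list with the smallest p were Hsph1 and Bag3, given above. The 17 HSP90 client proteins listed had a median of −0.04, with 7 higher and 10 lower. Hif1a, the hypoxia-inducible factor, had 219 ± 24 CPM in WT against 307 ± 30 CPM in Cul5 cKO (0.49, edgeR adjusted p = 0.0724), and the kinase Akt1 at 302 ± 6.0 and 362 ± 6.3 CPM (0.26, edgeR adjusted p = 0.0694). Counts at an unadjusted p under 0.05 were 3 higher and 1 lower among the clients (10.9% and 10.4% of all genes), and the latter was the kinase Jak1, at 420 ± 18 and 354 ± 26 CPM (−0.25, edgeR adjusted p = 0.124), named after its values were seen.

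**Figure D5:**
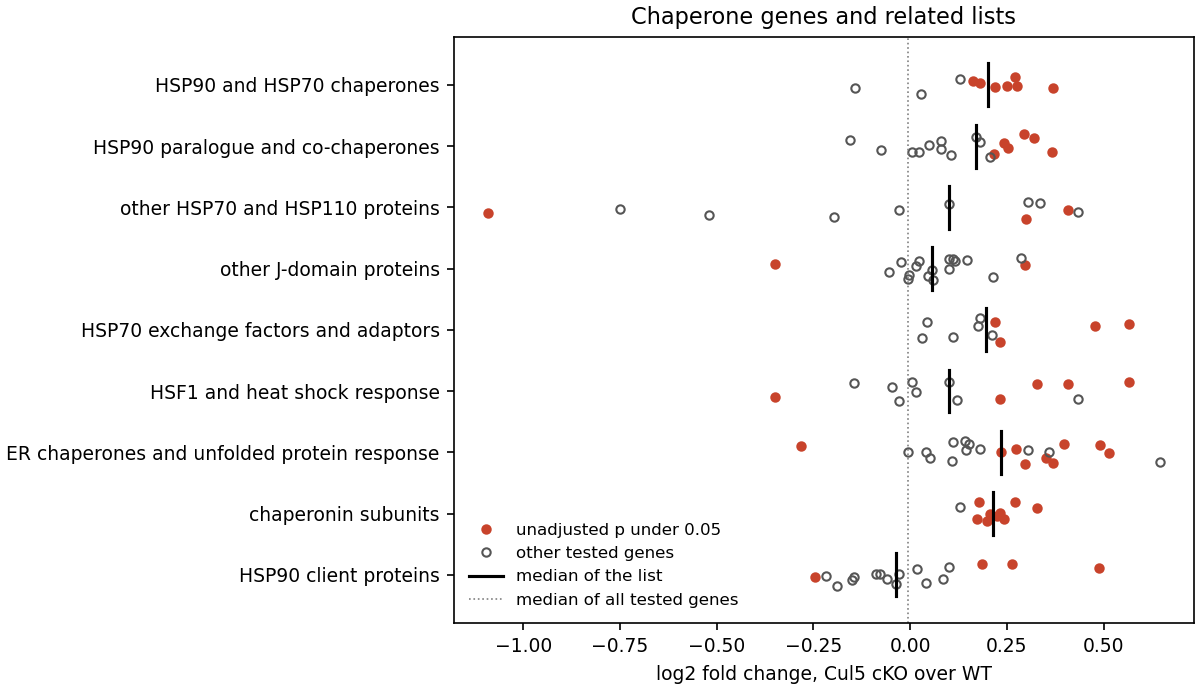
Each point is one tested gene, placed by its log2 fold change of Cul5 cKO over WT, with filled red points at an unadjusted p under 0.05, a black bar at the median of the list and a dotted line at the median of all tested genes, −0.01. The medians of the chaperone genes, the chaperonin subunits, the ER chaperones and the exchange factors lie between 0.20 and 0.23, and that of the client proteins at −0.04. The fitted value of Hspa1a, −0.14, rests on counts near the floor.

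The genes whose pattern over the 6 samples was closest to that of Hspa8, the most abundant of the set, were searched among 8694 genes with a mean of at least 10 CPM, by the root mean square difference of centred log2 CPM. The closest were Cinp, Nars, Kmt5a, Prkrip1 and Gtf2h1, with differences of 0.020 to 0.022 on the log2 scale against a median of 0.188 over the genes searched. Their log2 fold changes ran from 0.22 to 0.26, and edgeR called none of these 5 genes, with adjusted p from 0.169 to 0.247. Fold changes near that of Hspa8 follow from the search, which used the same 6 samples, and are not a separate result.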

How the data were processed

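Poly-A RNA of 3 WT and 3 Cul5 cKO samples was sequenced by the authors in single-end reads of 50 bp, and quantified with kallisto 0.46.2 against the Ensembl transcripts of GRCm38. The files deposited by the authors give estimated counts, not normalized, and TPM, which are scaled to transcript length, for 119414 transcripts per sample. The gene-level table deposited by the authors holds TMM-normalized log2 CPM made with edgeR 3.34.0, beside columns of the authors' own fold changes and p-values, which were not used.

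Transcripts were summed by gene with GENCODE M21, which matched 97.7% of them, and the sums of estimated counts were rounded. They were analysed in R 4.3.3 with edgeR 4.0.16 (default expression filter, TMM, quasi-likelihood test, Benjamini-Hochberg adjustment over 12925 genes), and a gene was called at an adjusted p under 0.05. No sample was dropped or imputed. Values beside a mean are SD unless SE is named, and the biological coefficient of variation was 16.1%. DESeq2 1.42.0 and limma 3.58.1 gave alternatives, with others for normalization, filter, measure, samples and replicate block. A floor of 3 counts was 0.759 CPM in WT replicate 3 and 0.128 to 0.133 CPM in the others and covers counting error only. Reads shared by near-identical transcripts were looked for with blastn 2.17.0 (at least 95% identity over 150 bases). The fit was tested on simulated data. Promoters are from RefSeq.

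Members and lists were chosen with earlier results of these data known. The genes named are the 10 chaperone genes, Cul5, Hspa1b and, in each list, those picked by the main edgeR fit. These were every gene it called and the 2 with its smallest p (mean of at least 1 CPM). Genes of the lists called only by DESeq2 or another alternative were not named on that ground. The 5 genes outside the lists closest to Hspa8 are named as well. The same search for Hspa5 is not reported here.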

Additional observations from a re-analysis of the deposited data

How the results depend on the processing

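Under each alternative run, 6 to 10 of the chaperone genes with a value were higher in Cul5 cKO. edgeR called 133 genes, against 693 with DESeq2, 228 without a filter beyond 1 count, 59 on counts scaled from TPM, 42 with limma on the gene-level table (2 without WT replicate 3), 27 and 30 on log2(TPM + 1) and log2(TPM + 0.1) (6 for the former without WT replicate 3) and 30 after thinning to the total of WT replicate 3, and leaving out 1 sample at a time gave 2 to 316, with 316 without WT replicate 1, 2 without WT replicate 2 or 3, 45 without Cul5 cKO replicate 2 and 3 without Cul5 cKO replicate 3. None of the 10 chaperone genes was called in any of these. Of the pathway genes 12 were called with DESeq2, 2 without a filter and 0 to 2 with 1 sample left out. Replicates with the same number correlated at 0.37, 0.206 and 0.0245 in their deviations from the group means, and 4 of 6 samples correlated best with their own number, so the numbers were not taken to pair the samples. With the replicate block 848 genes, 0 chaperone genes and 7 pathway genes were called. With the difference between replicate 1 and the others as a term the counts were 1688, 1 and 23, and with replicates 2 and 3 alone 1153, 4 and 18.

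Log2 fold changes of the other sign were obtained for Hsp90aa1, at −0.023 on counts scaled from TPM, −0.041 on the gene-level table, −0.060 on log2(TPM + 1) and −0.061 on log2(TPM + 0.1), for Hspa8, at −0.0014, −0.015, −0.035 and −0.035 in the same order, and for Hspa4, at −0.0033 on both TPM scales. Dnajb1 was at −0.016 by library size alone, −0.013 with replicates 2 and 3 alone, −0.010 without WT replicate 1, where leaving out a sample gave −0.010 to 0.091, and −0.011 after thinning. The fitted value of Hspa1a, which near the floor is not read as a difference, was 0.024 on counts scaled from TPM, 0.105 on log2(TPM + 0.1), 0.022 on log2(TPM + 1) without WT replicate 3, 0.314 when summed with Hspa1b, and between −0.948 and 1.292 with a sample left out, positive where the sample left out was WT replicate 2 or 3 or the first Cul5 cKO replicate. For these the cause was not tested, beyond the transcript shares of WT replicate 3 given for Hspa8, Hsp90aa1 and Hspa4. Library size alone moved the median of all genes to −0.05. At the depth of WT replicate 3 a gene under 0.759 CPM cannot be told from 0.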
